A study of Mus musculus with 9 samples.

Results

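Collagens are the fibrous proteins of the extracellular matrix, and each is a triple helix in which chains from the same or from different genes wind together. The genes described here are all those on the array whose symbol names a collagen chain, that is Col, a type number, the letter a and a chain number, with nothing after it. There were 42 such genes, represented by 82 probe sets, among the 18193 genes and 34945 probe sets that carry a single symbol. By class they were 11 fibrillar, 6 type IV, 5 type VI, 9 FACIT, 2 multiplexin, 4 transmembrane and 3 short-chain genes, with 2 others. RNA was measured on Affymetrix Mouse430_2 arrays, 3 per group, in resistant tumors (thymus tumors labelled XIST resistant), in tumors (labelled thymus tumor with no mention of resistance) and in normal mouse thymus. XIST is the RNA through which an X chromosome of female cells is silenced. All 3 groups are bulk tissue from which total RNA was extracted, and the labels give no strain, sex, age, genotype, transgene or treatment for any group. Nor is it stated that replicate arrays stand for different animals, and each p-value therefore reflects array-to-array spread that may be technical only. In bulk tissue, more or fewer cells of a type and more or less RNA per cell cannot be told apart.

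Fibrillar collagens (types I, II, III, V, XI, XXIV and XXVII) assemble into the banded fibrils of connective tissue, and type IV forms the sheet-like network of basement membranes. Type VI makes beaded filaments around cells, the FACIT collagens sit on the surface of fibrils, and the multiplexins XV and XVIII carry sugar chains and lie at basement membranes. In the normal thymus most collagen lies in the capsule, the septa and the walls of vessels, where fibroblasts and mural cells make the fibrillar types and endothelial and epithelial cells contribute type IV.

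The unit is the MAS5 signal as deposited, which is arbitrary, and the signals of different probe sets were not compared with each other. Median signals per array were 13.9 to 25.8. The poly-A spike-in controls gave a mean signal of 2.01 to 2.95 on 4 arrays (resistant tumor 1 and 2, tumor 1 and normal thymus 1) and of 141 to 237 on the other 5, so each set of arrays held all 3 groups. The arrays without spike-in signal had the higher medians, 23.6 to 25.8, against 13.9 to 17.8. Of 12 thymic epithelial markers, 11 were lower in both tumor groups, and of 9 tested thymocyte markers 5 were lower in both, among them Cd4 and Cd8a. Of all genes tested, 20.2% were called lower in resistant tumors and 19.1% in tumors. Ptprc, Cd3e and Cd3g, genes of leukocytes and of the T cell receptor complex, were not called in either. A gene entered the tests where at least 3 of the 9 arrays reached the array's own median, with its brightest probe set standing for it. Of the collagen genes 24 did, among 11671 genes in all. The other 18 are described after the tested ones.

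Most tested collagen genes were higher in both tumor groups than in normal thymus, and none was lower, where 20.2% of all genes were called lower in resistant tumors and 19.1% in tumors. In resistant tumors 21 of the 24 were higher at an adjusted p under 0.05 in limma, where 23.1% of all genes tested were called higher and 43.3% were called in either direction. In tumors 18 of 24 were higher, against 23.3% of all genes called higher and 42.4% called in either direction. Col8a1 and Col9a3, counted in both, passed the filter through tumor arrays of either kind alone, as every normal array was under its median. Col22a1 passed in the same way and was called in neither. The median log2 change of the 24 was 1.51 in resistant tumors and 1.62 in tumors, against 0.06 in resistant tumors and 0.05 in tumors for all genes. With 50 added to every signal, which by construction shrinks the changes of dim genes, the medians of the 24 were 0.87 in resistant tumors and 0.77 in tumors, and those of all genes 0.05 in resistant tumors and 0.04 in tumors. All 18 genes called in tumors were also called in resistant tumors, but both comparisons use the same normal arrays. The 3 arrays of resistant tumors lay above all 3 normal arrays for 20 of the 24 genes, which held for 28.9% of all genes, and those of tumors did so for 19, against 30.1% of all genes. No collagen lay entirely below normal thymus, where 25.7% of all genes did in resistant tumors and 25.2% in tumors. Between resistant tumors and tumors no collagen gene was called, where 0.36% of all genes were. Without the filter on dim probe sets all 42 genes could be tested, and 17 were higher in resistant tumors and 16 in tumors, where 13.7% of all 18193 genes were higher in each. None was called between resistant tumors and tumors in that fit, where 0.121% of all genes were.

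**Figure D1:**
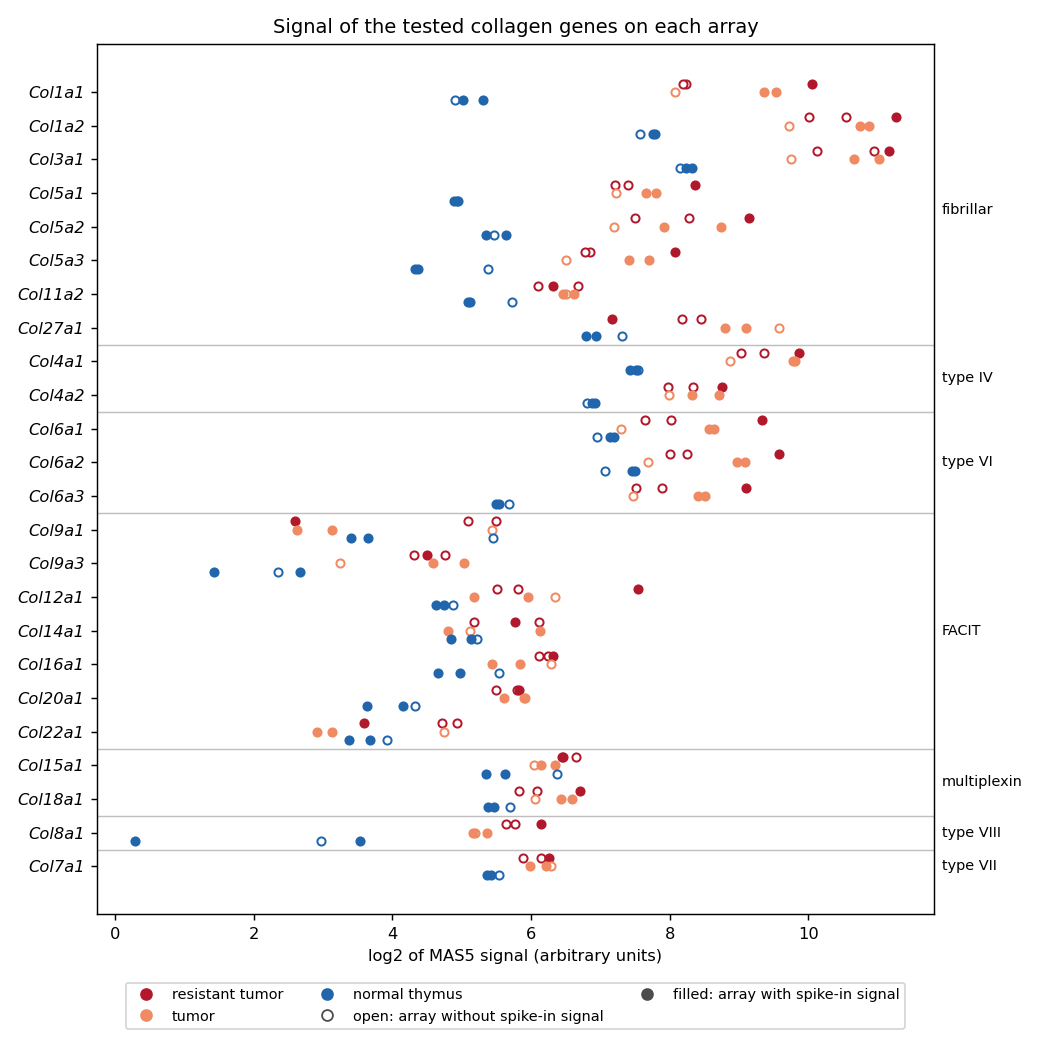
Signal of the 24 tested collagen genes on each of the 9 arrays, as log2 of the MAS5 signal (horizontal axis, arbitrary units), with genes in rows grouped by class. Red points are resistant tumors, orange points tumors and blue points normal thymus, and open points are arrays without spike-in signal. For the type I chains all 6 tumor arrays lie to the right of the 3 normal arrays, with Col1a1 at 292 to 1061 in resistant tumors, 269.6 to 738 in tumors and 30.1 to 39.8 in normal thymus. Positions of different rows are not comparable as amounts.

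In the fibrillar class all 8 tested members rose in both tumor groups, and 3 (Col2a1, Col11a1 and Col24a1) were too dim to test. Their median log2 change was 2.64 in resistant tumors and 2.49 in tumors. Signals below are given per array in the order of replicate number. The summed signal of the 8 genes was 3275 to 7199.6 in resistant tumors, 3218 to 6083 in tumors and 811 to 832 in normal thymus. Every tumor array of either kind exceeded every normal array, and the tumor arrays with spike-in signal (tumor 2, tumor 3 and resistant tumor 3) were the highest of their groups for types I, III and V.

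Type I collagen, the main protein of scar, bone and tendon, is built from the products of Col1a1 and Col1a2. Col1a1 had signals of 302, 292 and 1061 in resistant tumors, 269.6, 655 and 738 in tumors and 30.1, 32.5 and 39.8 in normal thymus. Normal thymus was narrow at 34.1 ± 5.1, while the tumor groups spread widely, at 551 ± 441 in resistant tumors and 554 ± 249.7 in tumors (SD, n = 3 arrays each). The log2 change was 3.74 ± 0.51 in resistant tumors and 3.90 ± 0.51 in tumors (SE, limma adjusted p = 0.000337 and 0.000254). Without resistant tumor 3, the array with the highest Col1a1 signal, the change in resistant tumors was 3.13. A second probe set for the gene gave 429, 269 and 723 in resistant tumors, 271, 427 and 474 in tumors and 31.8, 31.7 and 34.3 in normal thymus, again without overlap between tumors of either kind and normal thymus. Col1a2 gave 1489.8, 1034 and 2449.8 in resistant tumors, 845, 1709.9 and 1878 in tumors and 190.4, 221 and 218 in normal thymus. It rose by 2.90 ± 0.34 on the log2 scale in resistant tumors and by 2.74 ± 0.34 in tumors (limma adjusted p = 0.000139 and 0.000198).

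Type III collagen, a homotrimer of Col3a1 chains found with type I in elastic tissues and in the reticular fibres of lymphoid organs, was already bright in normal thymus. Col3a1 signals were 1971, 1119 and 2298 in resistant tumors, 863, 1619.7 and 2067 in tumors and 283, 300.4 and 321 in normal thymus, so the groups did not overlap with normal thymus and the change was 2.51 ± 0.33 in resistant tumors and 2.24 ± 0.33 in tumors (limma adjusted p = 0.000258 and 0.000498). Its neighbour on chromosome 1, Col5a2, encodes a chain of type V, the minor collagen that nucleates type I fibrils and sets their diameter. Col5a2 had 311, 180.3 and 568 in resistant tumors, 147, 242 and 426 in tumors and 44.4, 49.7 and 40.9 in normal thymus, a rise of 2.82 ± 0.44 in resistant tumors and 2.46 ± 0.44 in tumors. Col5a1, the other main type V chain, was the steadiest of the class in normal thymus, with 30.8, 30.4 and 29.6. It reached 169.6, 148 and 330.0 in resistant tumors and 149, 203 and 222 in tumors. The smallest adjusted p-values of all tested collagens belonged to it: 5.74e-05 for a change of 2.74 ± 0.28 in resistant tumors and 7.29e-05 for 2.64 ± 0.28 in tumors. With 50 added to every signal these changes were 1.67 in resistant tumors and 1.58 in tumors. Col5a3, a rarer type V chain, had 116, 109.6 and 269 in resistant tumors, 91.0, 171 and 208 in tumors and 41.5, 20.7 and 20.1 in normal thymus. Its change of 2.54 ± 0.44 in resistant tumors and 2.52 ± 0.44 in tumors differed between the sets of arrays, at 1.44 and 3.72 in resistant tumors and 1.13 and 3.21 in tumors on arrays without and with spike-in signal.

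RefSeq's table for GRCm38.p6 held a promoter for 33 of the 42 genes, and for 15 of the 18 called in both tumor groups; Col1a1 was not among them. Each sequence below is the 250 bases before the annotated start, on the gene's own strand, with capitals marking motifs searched on both strands. They are the CCAAT box, spelled by its name, the TATA box, for which the letters TATAAA were searched, and the GC box, for which GGGCGG was searched, and in the windows shown no match overlapped another. Col1a2 and Col3a1 are shown because they encode chains of the main fibrils, Col5a1 because it had the smallest p-values, and Col27a1 because it alone separated resistant tumors below tumors.
Col1a2 (chr6:4505368-4505617, plus strand): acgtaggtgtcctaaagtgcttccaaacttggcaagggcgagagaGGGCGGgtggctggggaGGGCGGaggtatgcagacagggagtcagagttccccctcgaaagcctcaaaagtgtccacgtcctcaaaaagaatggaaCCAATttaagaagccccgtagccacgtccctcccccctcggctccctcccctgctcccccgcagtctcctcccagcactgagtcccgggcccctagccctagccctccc
Col3a1 (chr1:45311288-45311537, plus strand): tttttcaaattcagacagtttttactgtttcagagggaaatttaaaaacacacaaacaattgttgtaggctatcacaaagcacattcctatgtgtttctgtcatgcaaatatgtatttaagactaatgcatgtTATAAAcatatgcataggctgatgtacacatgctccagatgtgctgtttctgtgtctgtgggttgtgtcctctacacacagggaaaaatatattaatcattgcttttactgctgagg
Col5a1 (chr2:27886175-27886424, plus strand): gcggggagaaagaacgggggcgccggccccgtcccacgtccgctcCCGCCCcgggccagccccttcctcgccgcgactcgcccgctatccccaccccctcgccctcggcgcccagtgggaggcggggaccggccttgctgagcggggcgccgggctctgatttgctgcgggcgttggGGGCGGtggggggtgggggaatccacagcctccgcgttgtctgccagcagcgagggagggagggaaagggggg
Col27a1 (chr4:63215162-63215411, plus strand): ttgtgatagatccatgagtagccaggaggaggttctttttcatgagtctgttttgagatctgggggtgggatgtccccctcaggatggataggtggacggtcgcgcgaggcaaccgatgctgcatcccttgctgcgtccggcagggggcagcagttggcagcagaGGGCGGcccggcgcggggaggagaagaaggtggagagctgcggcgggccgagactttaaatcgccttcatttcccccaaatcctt
The Col1a2 window held a CCAAT box at 109 to 105 bases before the start and GC boxes at 205 to 200 and 188 to 183. Col3a1 held a TATA box at 117 to 112 bases before the start and none of the other motifs. Col5a1 held GC boxes at 205 to 200, on the minus strand, and at 73 to 68, and Col27a1 held a GC box at 85 to 80. Over all 27025 promoters of the table, 34.5% had a CCAAT box, 13.0% a TATA box and 32.9% a GC box. A few genes have more than 1 window, and the one listed first stood for each gene in these counts. Among the 33 collagen genes these were 12 (36.4%), 5 (15.2%) and 20 (60.6%), and among the 15 genes called in both tumor groups 7 (46.7%), 2 (13.3%) and 11 (73.3%). A match describes these letters in this window and shows no binding.

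The other fibrillar members had smaller fitted changes in resistant tumors. Col11a2, whose product joins type XI collagen of cartilage, had 68.6, 102 and 79.6 in resistant tumors, 91.1, 88.2 and 98.0 in tumors and 52.8, 34.3 and 34.7 in normal thymus, a change of 1.05 ± 0.22 in resistant tumors and 1.22 ± 0.22 in tumors (limma adjusted p = 0.00378 and 0.0017). With equal array medians the Col11a2 change in resistant tumors was 0.99 and was not called (adjusted p = 0.052). Col27a1, a fibrillar chain known from cartilage, had 350.3, 290.1 and 144 in resistant tumors, 762, 549 and 444 in tumors and 159, 122 and 111 in normal thymus. It was the only fibrillar gene in which a resistant tumor array (resistant tumor 3) lay below a normal one. The change against normal thymus was 0.92 ± 0.32 in resistant tumors (adjusted p = 0.0418) and 2.14 ± 0.32 in tumors (adjusted p = 0.000582). The Col27a1 call in resistant tumors was lost without resistant tumor 1, resistant tumor 2, tumor 2, normal thymus 2 or normal thymus 3 (adjusted p = 0.0605 to 0.138). Acan, the aggrecan gene of cartilage, was also higher, by 2.22 ± 0.16 in resistant tumors and 2.37 ± 0.16 in tumors. Of the other cartilage and bone markers only Sp7, which was not called, was bright enough to test, and Sox9, Comp, Matn1 and Ibsp were not; the part of cartilage or bone cells in the Col11a2 and Col27a1 values was not tested.

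**Figure D2:**
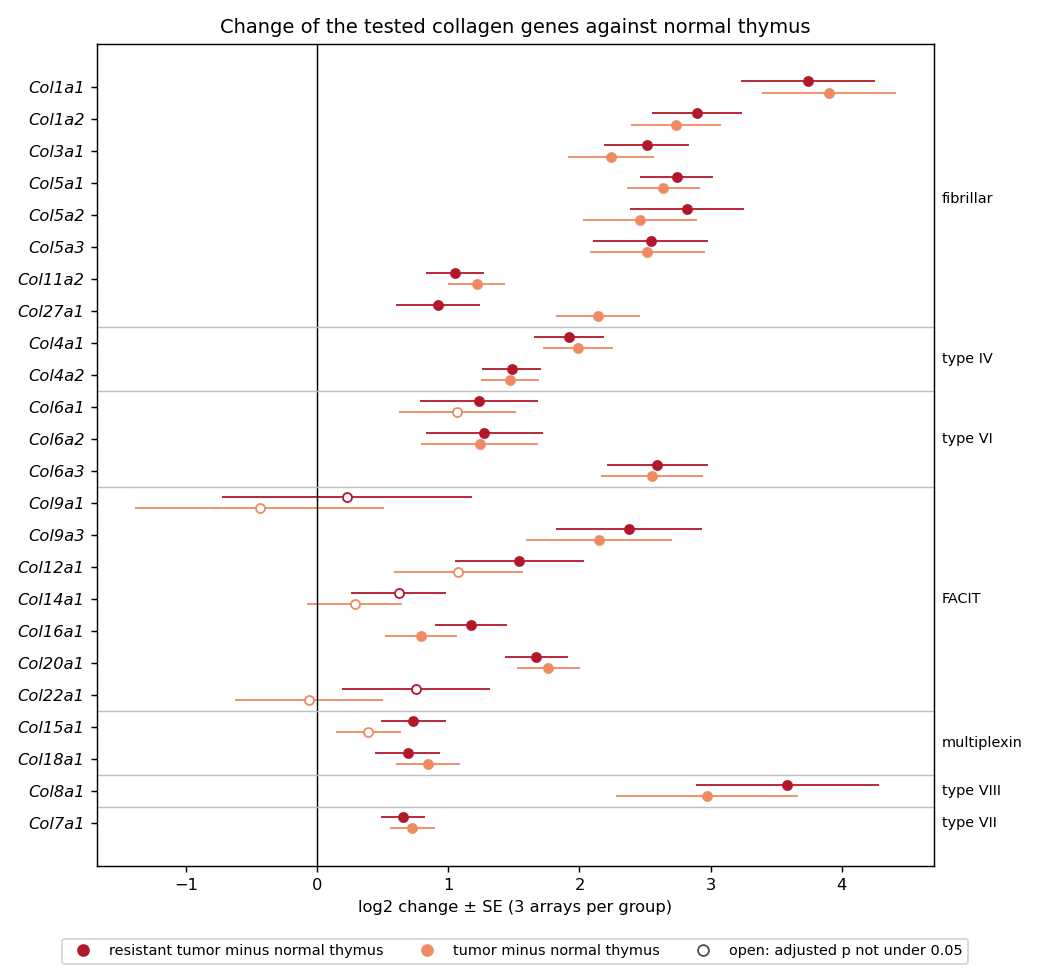
Log2 change against normal thymus (horizontal axis, with SE bars, 3 arrays per group) for the 24 tested collagen genes in rows by class. Red points are resistant tumors, orange points tumors, and open points did not pass the test. Col1a1 sits furthest right, at 3.74 in resistant tumors and 3.90 in tumors, and only Col27a1 shows resistant tumors well to the left of tumors (0.92 against 2.14).

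Type IV collagen of ordinary basement membranes is made from Col4a1 and Col4a2, which lie head to head on chromosome 8. Both rose in both tumor groups. Col4a1 had 657, 520.0 and 932 in resistant tumors, 466, 883 and 892 in tumors and 186, 183 and 172 in normal thymus, and Col4a2 had 322, 252 and 433 in resistant tumors, 253, 320.2 and 420.3 in tumors and 112, 118 and 122 in normal thymus. No tumor array of either kind overlapped with normal thymus for either gene. The change of Col4a1 was 1.92 ± 0.27 in resistant tumors and 1.99 ± 0.27 in tumors (limma adjusted p = 0.000403 and 0.000316), and that of Col4a2 was 1.48 ± 0.22 in resistant tumors and 1.47 ± 0.22 in tumors (adjusted p = 0.000597 and 0.000626). With equal array medians the change of Col4a2 in resistant tumors was 1.42 and was not called (adjusted p = 0.0512). The Col4a2 window held a CCAAT box 32 to 28 bases before its start, which is shown as 30 bases with the box in capitals because the gene rose in both tumor groups.
Col4a2 (chr8:11312761-11312790, GRCm38.p6, plus strand): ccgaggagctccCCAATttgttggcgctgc
The Col4a1 window held a different CCAAT box, on its minus strand, 145 to 141 bases before its own start. By the annotated starts the Col4a1 window (chr8:11312827-11313076) and the Col4a2 window (chr8:11312555-11312804) do not overlap.

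The 4 other type IV chains, which replace the ordinary ones in the basement membranes of kidney, lung, testis and smooth muscle, were too dim to test. The brightest probe set of Col4a3 gave 11.7, 2.3 and 0.81 in resistant tumors, 11.1, 1.8 and 0.49 in tumors and 15.6, 0.74 and 0.69 in normal thymus, and that of Col4a4 2.8, 2.0 and 3.2 in resistant tumors, 6.5, 0.48 and 2.2 in tumors and 3.5, 3.3 and 1.5 in normal thymus. Col4a5 gave 12.6, 12.5 and 3.6 in resistant tumors, 13.4, 9.6 and 9.0 in tumors and 18.7, 6.5 and 9.3 in normal thymus, and Col4a6 17.8, 21.4 and 7.2 in resistant tumors, 24.6, 1.0 and 10.5 in tumors and 29.0, 8.5 and 9.0 in normal thymus. All of these lay under the array median except 1 Col4a6 value. A second Col4a5 probe set was lower in both tumor groups in the fit without the filter (3.4, 3.0 and 0.58 in resistant tumors, 5.7, 1.2 and 1.6 in tumors and 16.5, 10.9 and 12.4 in normal thymus, adjusted p = 0.0342 and 0.0343 in resistant tumors and tumors), but every value lay under the array median, so no fold is given.

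Other basement membrane genes were called in both directions, with 7 of 13 tested higher and 2 lower in resistant tumors and 6 higher and 2 lower in tumors. Of all genes tested, 23.1% were called higher and 20.2% lower in resistant tumors, and 23.3% higher and 19.1% lower in tumors. The list's median was 1.35 in resistant tumors and 1.11 in tumors. Lama5 and Lamb2, laminin chains of vessels and many epithelia, were under the array median on all normal arrays, so only bounds can be given. They were at least 6.91-fold and 4.97-fold higher in resistant tumors and at least 6.09-fold and 7.03-fold higher in tumors. Agrn, the heparan sulfate proteoglycan agrin, rose by 1.86 ± 0.30 in resistant tumors and 2.06 ± 0.30 in tumors. Lama3 and Lamb3, chains of the epithelial laminin-332, were lower: Lama3 at least 3.42-fold in resistant tumors and 4.05-fold in tumors, and Lamb3 by -2.20 ± 0.40 in resistant tumors and -1.44 ± 0.40 in tumors on the log2 scale.

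Of 13 endothelial markers 7 were higher and 1 lower in resistant tumors, and 6 higher and 1 lower in tumors, with medians of 0.66 in resistant tumors and 0.67 in tumors. The shares of all genes were again 23.1% higher and 20.2% lower in resistant tumors, and 23.3% higher and 19.1% lower in tumors. Their summed signal was 900.5 to 1251 in resistant tumors, 844 to 1107 in tumors and 628 to 662 in normal thymus. Egfl7 rose by 1.98 ± 0.34 in resistant tumors and 2.10 ± 0.34 in tumors, while Pecam1, the endothelial junction gene, fell (-0.58 ± 0.20 in resistant tumors and -0.89 ± 0.20 in tumors). The part of endothelial cells in the type IV result was not tested.

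Type VI collagen is assembled from the products of Col6a1, Col6a2 and Col6a3. Col6a3 rose clearly: its signals were 237, 184 and 547 in resistant tumors, 177, 339 and 364 in tumors and 51.5, 45.2 and 46.4 in normal thymus, and the change was 2.59 ± 0.39 in resistant tumors and 2.55 ± 0.39 in tumors (limma adjusted p = 0.000593 and 0.000644). Col6a1 and Col6a2, neighbours on chromosome 10, had smaller and more variable changes. Col6a1 gave 259.7, 199 and 648 in resistant tumors, 158, 398 and 379 in tumors and 123, 142 and 148 in normal thymus, and Col6a2 gave 304, 258 and 767 in resistant tumors, 205, 502 and 542 in tumors and 134, 175 and 181 in normal thymus. All tumor arrays of either kind exceeded the normal arrays for both genes, but the arrays without spike-in signal (resistant tumor 1 and 2 and tumor 1) by less than the others. Col6a2 was called in both (1.27 ± 0.45, adjusted p = 0.0426 in resistant tumors and 1.24 ± 0.45, adjusted p = 0.0484 in tumors). Col6a1 was called in resistant tumors (1.23 ± 0.45, adjusted p = 0.0485) and not in tumors (1.07 ± 0.45, adjusted p = 0.0811), though it was with the replicate number as a block (adjusted p = 0.0214). The Col6a1 call in resistant tumors was lost without resistant tumor 1, resistant tumor 3, tumor 2, tumor 3, normal thymus 1, normal thymus 2 or normal thymus 3 (adjusted p = 0.0569 to 0.127). The Col6a2 call was lost in resistant tumors without resistant tumor 3, tumor 2, normal thymus 1, normal thymus 2 or normal thymus 3 (adjusted p = 0.054 to 0.115) and in tumors without resistant tumor 1, tumor 2, tumor 3, normal thymus 1, normal thymus 2 or normal thymus 3 (adjusted p = 0.0568 to 0.162). The distinct chains Col6a4 and Col6a5 were too dim to test, with Col6a4 at 2.0, 12.2 and 3.8 in resistant tumors, 10.7, 1.9 and 4.4 in tumors and 19.3, 5.3 and 4.8 in normal thymus and Col6a5 at 5.1, 5.2 and 0.61 in resistant tumors, 5.6, 0.13 and 1.4 in tumors and 7.5, 3.3 and 1.3 in normal thymus. A further Col6a4 probe set was lower in the fit without the filter (2.7, 1.1 and 1.1 in resistant tumors, 1.5, 4.5 and 1.9 in tumors and 13.3, 8.3 and 7.9 in normal thymus, adjusted p = 0.01 in resistant tumors and 0.0344 in tumors), with every value under the array median.

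The FACIT collagens, which bind the surface of fibrils, were mixed. Of 9 genes 7 were tested, and 4 were higher in resistant tumors and 3 in tumors, with medians of 1.17 in resistant tumors and 0.79 in tumors. Col20a1 had the smallest adjusted p of the class, with 45.3, 55.9 and 57.0 in resistant tumors, 60.3, 59.7 and 48.8 in tumors and 20.1, 17.9 and 12.5 in normal thymus. It rose by 1.67 ± 0.24 in resistant tumors and 1.76 ± 0.24 in tumors (limma adjusted p = 0.000475 and 0.000334). Col9a3, a chain of the type IX collagen of cartilage, gave 19.9, 27.0 and 22.6 in resistant tumors, 9.5, 32.9 and 24.2 in tumors and 5.1, 2.7 and 6.3 in normal thymus. The normal arrays were all under the array median, so it was at least 1.16-fold higher in resistant tumors (adjusted p = 0.00692), and it was also called in tumors (adjusted p = 0.0112) with no fold given. The call in tumors was lost without tumor 2 (adjusted p = 0.0573).

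Col12a1, which decorates type I fibrils in tendon and under mechanical load, had 56.3, 45.8 and 186 in resistant tumors, 81.5, 36.1 and 62.1 in tumors and 29.3, 26.7 and 24.9 in normal thymus. Resistant tumor 3 stood far above the rest. The change of 1.54 ± 0.49 in resistant tumors was called (adjusted p = 0.0288); without that array it was 0.92 and not called. The call was lost without resistant tumor 3, normal thymus 1, normal thymus 2 or normal thymus 3 (adjusted p = 0.0507 to 0.0794). In tumors it was 1.08 ± 0.49 and not called (adjusted p = 0.106), but it was with the replicate number as a block (adjusted p = 0.0482). Col16a1 had 76.3, 69.4 and 80.2 in resistant tumors, 78.1, 43.4 and 57.2 in tumors and 46.6, 25.4 and 31.4 in normal thymus. It was higher in resistant tumors by 1.17 ± 0.28 (adjusted p = 0.00712) and in tumors by 0.79 ± 0.28 (adjusted p = 0.0415), where tumor 2 lay below normal thymus 1. The call in tumors was lost without resistant tumor 1, resistant tumor 2, tumor 1, tumor 3, normal thymus 2 or normal thymus 3 (adjusted p = 0.0533 to 0.153). Col9a1, Col14a1 and Col22a1 were called in neither comparison and overlapped with normal thymus in both. Col22a1 lay under the median on all normal arrays, so its fitted change is no bound. The fitted changes of the 3 genes were 0.23, 0.62 and 0.75 in resistant tumors and -0.44, 0.29 and -0.06 in tumors.

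The multiplexins, type VIII and type VII moved by smaller amounts or from a dim base. Col15a1 had 100.4, 87.4 and 88.1 in resistant tumors, 66.2, 81.5 and 70.6 in tumors and 83.4, 40.8 and 49.6 in normal thymus, so normal thymus 1 overlapped with tumors but lay below every resistant tumor array. It was called in resistant tumors (0.73 ± 0.25, adjusted p = 0.0371) and not in tumors (0.39 ± 0.25, adjusted p = 0.235). The call was lost without resistant tumor 1, resistant tumor 2, resistant tumor 3, tumor 3, normal thymus 2 or normal thymus 3 (adjusted p = 0.0542 to 0.145). Col18a1, the source of endostatin, gave 56.7, 67.9 and 104 in resistant tumors, 66.3, 86.7 and 96.4 in tumors and 51.9, 44.2 and 41.8 in normal thymus, without overlap, with changes of 0.69 ± 0.25 in resistant tumors and 0.84 ± 0.25 in tumors (adjusted p = 0.0458 and 0.02). Its other probe set gave 45.6, 36.5 and 88.0 in resistant tumors, 30.2, 65.0 and 73.5 in tumors and 53.0, 50.8 and 42.1 in normal thymus, overlapping with normal thymus and not called. The Col18a1 call was lost in resistant tumors without resistant tumor 2, resistant tumor 3, tumor 2, tumor 3, normal thymus 1, normal thymus 2 or normal thymus 3 (adjusted p = 0.0555 to 0.134) and in tumors without tumor 2, tumor 3, normal thymus 2 or normal thymus 3 (adjusted p = 0.0634 to 0.0788).

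Col8a1, a short-chain collagen of vessel walls and of the cornea's inner membrane, gave 54.7, 49.9 and 70.8 in resistant tumors, 36.6, 35.9 and 41.1 in tumors and 7.8, 11.6 and 1.2 in normal thymus. Every normal array was under its median, so the gene was at least 2.91-fold higher in resistant tumors and at least 1.90-fold higher in tumors (limma adjusted p = 0.00262 and 0.0069). The fitted log2 change of 3.59 in resistant tumors became 4.22 without normal thymus 2 and 2.60 without normal thymus 3, and that of 2.97 in tumors became 3.61 without normal thymus 2 and 1.99 without normal thymus 3. Col7a1, the anchoring fibril collagen of skin, had 59.3, 70.6 and 76.4 in resistant tumors, 78.5, 74.6 and 63.5 in tumors and 46.4, 42.8 and 41.4 in normal thymus. The change was small, 0.65 ± 0.17 in resistant tumors and 0.73 ± 0.17 in tumors, but no tumor array overlapped with normal thymus (adjusted p = 0.0118 and 0.0069). With equal array medians Col7a1 was called in neither (adjusted p = 0.277 in resistant tumors and 0.0785 in tumors).

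The 44 probe sets that did not pass had signals of 0.0568 to 33.2 with a median of 3.34. For 14 of the 18 genes not tested every probe set lay under the array median on all 9 arrays. The untested genes include all 4 transmembrane collagens (Col13a1, Col17a1, Col23a1 and Col25a1), Col2a1 and Col11a1 of cartilage fibrils, Col9a2, Col10a1 of growth plate cartilage, Col8a2, Col19a1, Col24a1 and Col26a1. The brightest value of the probe sets that stood for these genes was 29.0 (Col4a6 on 1 array). In the limma fit of every probe set without the filter, 2 of the 18 untested genes had a probe set that was called higher in resistant tumors. Without the filter and with the brightest probe set standing for each gene, 13.7% of all 18193 genes were called higher there. Col24a1, a fibrillar chain, had 3.4, 2.7 and 4.8 in resistant tumors, 0.33, 1.6 and 0.057 in tumors and 1.7, 0.72 and 0.17 in normal thymus (adjusted p = 0.0143 in resistant tumors and 0.997 in tumors), all under the array median. Col25a1, a transmembrane collagen of neurons, had 9.5, 25.6 and 16.1 in resistant tumors, 16.1, 7.9 and 8.0 in tumors and 7.3, 1.2 and 1.2 in normal thymus (adjusted p = 0.0354 in resistant tumors and 0.0909 in tumors). Only resistant tumor 2 and 3 reached their array median for Col25a1, and no fold is given for either gene. Low signal does not show that these genes are absent from the tissue.

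Between resistant tumors and tumors no collagen gene passed the test. Only Col27a1 had an unadjusted p under 0.05 in limma, as did 7.23% of all genes, and its adjusted p was 0.234. Its signal was 350.3, 290.1 and 144 in resistant tumors and 762, 549 and 444 in tumors, with no overlap, and means of 262 ± 106 in resistant tumors and 585 ± 162 in tumors (SD, n = 3 arrays each). The log2 difference was -1.22 ± 0.32, with a 95% interval of -1.94 to -0.50. A second probe set gave 149.9, 130.2 and 60.9 in resistant tumors and 401, 361 and 261 in tumors, again lower in every resistant array. Within the sets of arrays the difference was -1.26 and -1.77 without and with spike-in signal, and with the set as a block it was -1.47 with an adjusted p of 0.00281. Over all alternatives the adjusted p was 0.00281 to 0.639.

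The intervals of the other members show how much difference the data still allow. For Col1a1 the resistant minus tumor interval was -1.30 to 0.98 on the log2 scale and for Col5a1 it was -0.53 to 0.73. For Col4a1 and Col4a2 the intervals were -0.67 to 0.53 and -0.48 to 0.51. Besides Col27a1, which was lower, only Col8a1 and Col15a1 had resistant tumor arrays entirely above the tumor arrays, and neither was called; this separation held for 4.41% of all genes in the higher direction and 6.01% in the lower. The median difference over the 24 was 0.13, against -0.02 for all genes.

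**Figure D3:**
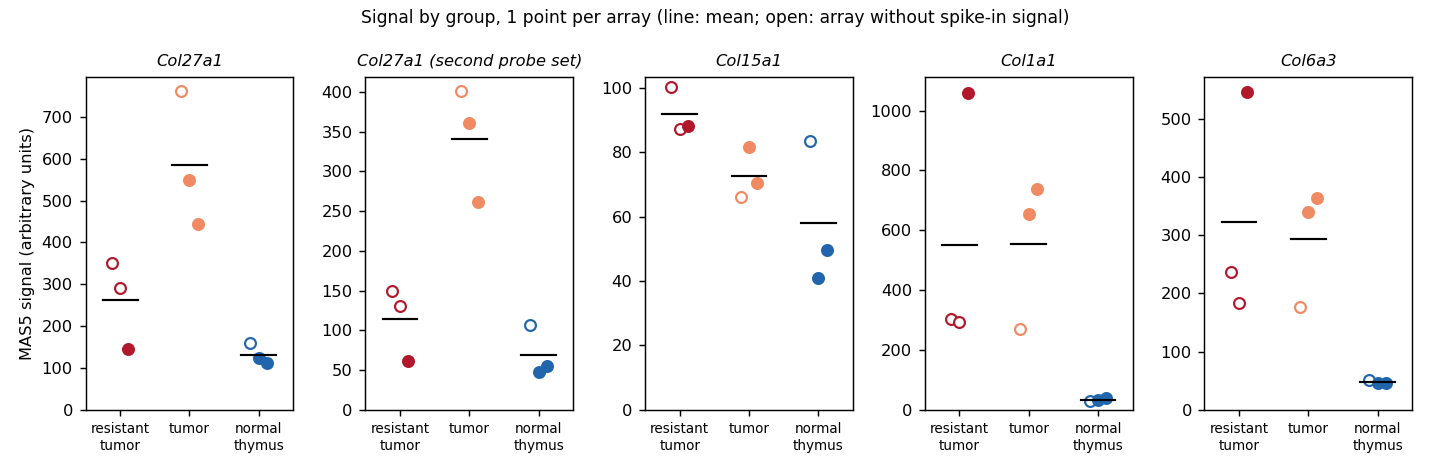
MAS5 signal (vertical axis from 0, arbitrary units) of 2 Col27a1 probe sets, Col15a1, Col1a1 and Col6a3, with 1 point per array, a line at the group mean and open points for arrays without spike-in signal; groups run from resistant tumor to tumor to normal thymus. Col27a1 averages 262 in resistant tumors and 585 in tumors with no overlap, while for Col1a1 and Col6a3 the tumor groups overlap.

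The changes against normal thymus had the same sign within both sets of arrays for all 21 genes called in resistant tumors and all 18 called in tumors. That sign was fixed in advance wherever every array of a tumor group lay above every normal array. This held for all called genes except Col27a1 in resistant tumors and Col16a1 in tumors. The changes were larger on arrays with spike-in signal for 20 of the 21 in resistant tumors and 16 of the 18 in tumors, compared with 60.1% of all genes called higher in resistant tumors and 57.9% in tumors. The median over the 24 was 1.19 and 2.14 in resistant tumors, and 1.16 and 1.73 in tumors, without and with spike-in signal. Without spike-in signal, tumor 1 and normal thymus 1 were the only arrays of their groups. With it, resistant tumor 3 was the only resistant array. A shift of any such array would move all genes together. Col1a1 was at 3.30 and 4.88 in resistant tumors and 3.16 and 4.27 in tumors. Col15a1 was at 0.17 and 0.97 in resistant tumors and -0.33 and 0.75 in tumors. With the set as a block 21 genes were called in resistant tumors and 19 in tumors, where 32.0% of all genes were called higher in resistant tumors and 32.6% in tumors. What separates the sets is not given in the labels, and its part in the sizes was not tested.

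**Figure D4:**
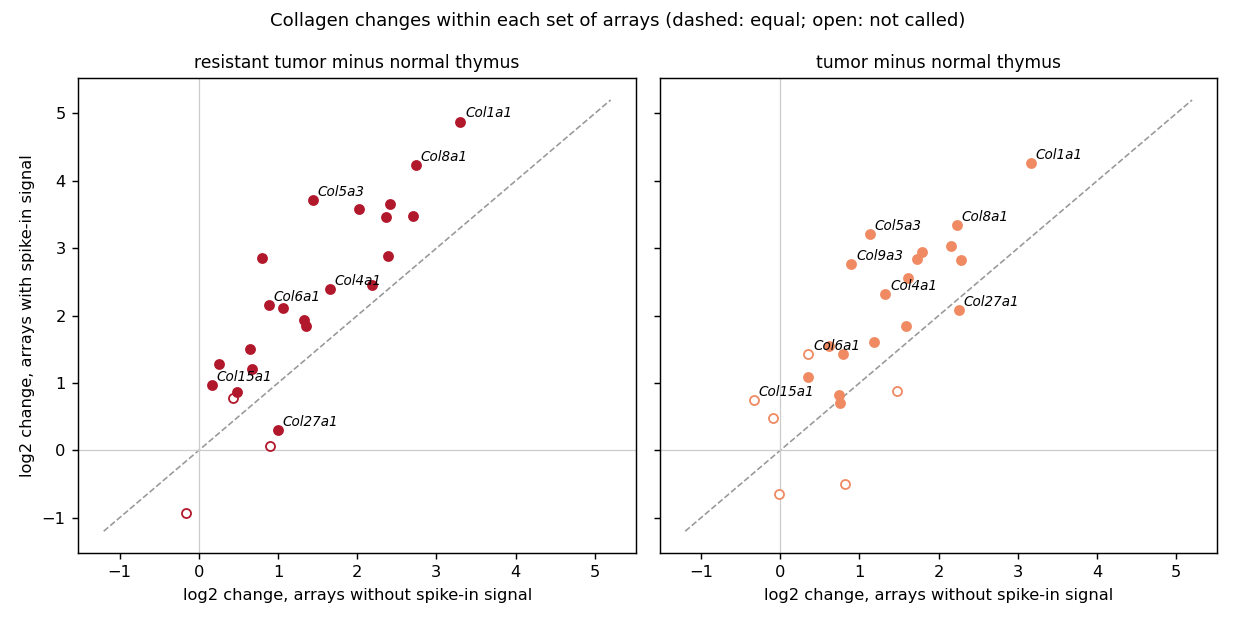
Log2 change against normal thymus on arrays without spike-in signal (horizontal axis) and with it (vertical axis), 1 point per tested collagen gene, for resistant tumors on the left and tumors on the right. Filled points were called in the fit over all arrays, open points were not, and the dashed line marks equal changes. Most called genes lie above the line, Col1a1 at 3.30 and 4.88 in resistant tumors and at 3.16 and 4.27 in tumors, and Col27a1 below it in both.

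Probe sets of the same gene were compared in a limma fit of every probe set with a single symbol, without the filter. There, of 12 genes with several probe sets past the filter, all were called in 7 genes for resistant tumors and 8 for tumors. Some were called in 2 genes for resistant tumors and 3 for tumors, and none in 3 genes for resistant tumors and 1 for tumors. Col18a1 and Col27a1, called in resistant tumors in the main fit, had no called probe set in resistant tumors there. The Col6a2 probe set that stood for its gene was not called there in either tumor group, unlike in the main fit. Opposite signs occurred only for Col14a1 in tumors. Genes with a single probe set have no such check.

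Most tested genes of the proteins that hydroxylate, fold, trim and crosslink collagen were higher in the tumors. Of 21 tested genes 15 were higher and 2 lower in resistant tumors (median 0.92), and 14 were higher and 2 lower in tumors (median 1.03). For this and the following lists, the shares of all genes to read the counts against are 23.1% called higher and 20.2% called lower in resistant tumors, and 23.3% called higher and 19.1% called lower in tumors. Bmp1, the protease that removes the C-terminal propeptide, rose by 2.51 ± 0.22 in resistant tumors and 2.38 ± 0.22 in tumors. Plod2, a lysyl hydroxylase, rose by 2.01 ± 0.23 in resistant tumors and 2.42 ± 0.23 in tumors, and P4ha1, a prolyl hydroxylase subunit, by 1.94 ± 0.21 in resistant tumors and 1.99 ± 0.21 in tumors. Plod1, another lysyl hydroxylase, rose by 1.81 ± 0.30 in resistant tumors and 1.98 ± 0.30 in tumors. Lox, which crosslinks collagen fibrils, rose by 2.17 ± 0.48 in resistant tumors and 1.53 ± 0.48 in tumors. P3h4 and Mia3, of which Mia3 is needed to export large collagens from the endoplasmic reticulum, fell (-1.46 ± 0.19 and -0.69 ± 0.10 in resistant tumors, -1.35 ± 0.19 and -0.72 ± 0.10 in tumors). Serpinh1, the collagen chaperone, was not called (0.72 ± 0.35 in resistant tumors and 0.53 ± 0.35 in tumors, adjusted p = 0.13 and 0.257).

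Of 18 tested proteins that associate with fibrils, 7 were higher in both tumor groups, with medians of 0.64 in resistant tumors and 0.34 in tumors. In each tumor group 2 were lower: Tnc in both, Dcn in resistant tumors only and Prelp in tumors only. Fbln1, the fibulin gene of elastic fibres and basement membranes, rose by 3.63 ± 0.34 in resistant tumors and 3.14 ± 0.34 in tumors, and Fn1, fibronectin, by 2.22 ± 0.35 in resistant tumors and 2.06 ± 0.35 in tumors. Thbs1, the thrombospondin gene, was under the array median on all normal arrays and was at least 1.24-fold higher in resistant tumors (adjusted p = 0.00627), and it was also called in tumors (adjusted p = 0.0205) with no fold given. Aspn, asporin, a small leucine-rich proteoglycan, was likewise under the median on all normal arrays. It was at least 1.46-fold higher in resistant tumors (adjusted p = 0.0015) and was also called in tumors (adjusted p = 0.00905) with no fold given. Sparc, a collagen-binding matricellular protein, rose by 1.80 ± 0.34 in resistant tumors and 1.80 ± 0.34 in tumors, while Tnc, tenascin C, fell by 2.06 in resistant tumors and 1.99 in tumors. For degradation, 5 of 8 were higher and none lower in resistant tumors (median 0.95), and 5 were higher and 1 lower in tumors (median 1.57). Ctsk, the collagen-cleaving cathepsin K, was at least 5.88-fold higher in resistant tumors and 8.56-fold in tumors. Mmp13, a collagenase, was at least 4.44-fold higher in resistant tumors and 2.29-fold higher in tumors, and Timp1, an inhibitor of metalloproteinases, rose by 2.78 ± 0.49 in resistant tumors and 2.85 ± 0.49 in tumors. Timp3, a matrix-bound inhibitor of the same family, rose by 1.46 ± 0.25 in resistant tumors and 2.56 ± 0.25 in tumors. Among receptors 3 of 8 rose and 1 fell in resistant tumors, and 3 rose and 2 fell in tumors. Mrc2, an endocytic collagen receptor, was at least 1.86-fold higher in resistant tumors and 1.37-fold in tumors over all arrays. Its log2 change was 0.80 and 4.03 in resistant tumors, and 0.04 and 3.62 in tumors, without and with spike-in signal. On the arrays without spike-in signal both changes fell short of these bounds. Antxr2 was at -1.56 ± 0.20 in resistant tumors and -1.57 ± 0.20 in tumors. Itgb1, the shared beta chain of collagen integrins, was at 0.78 ± 0.20 in resistant tumors and 0.89 ± 0.20 in tumors. Antxr1, another receptor of the list, rose by 0.60 ± 0.22 in resistant tumors and 1.46 ± 0.22 in tumors. Lair1, an inhibitory receptor of leukocytes, was under the median on all tumor arrays and was at least 1.36-fold lower in tumors (adjusted p = 0.0194), and it was not called in resistant tumors (adjusted p = 0.0608). No gene of these lists was called between resistant tumors and tumors.

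Of 8 tested fibroblast markers 3 were higher and 1 lower in resistant tumors, and 1 was higher and none lower in tumors, with medians of 0.89 in resistant tumors and 0.43 in tumors; Twist1 and Tcf21 were too dim to test. Their summed signal was 327 to 784 in resistant tumors, 322 to 845 in tumors and 668 to 693 in normal thymus. Dcn, described next, made up 455 to 488 of the normal sums, so the sum says little about the other markers. Dcn, decorin, which is also in the fibril-associated list, gave 237, 91.0 and 331 in resistant tumors, 147, 188 and 349 in tumors and 462, 455 and 488 in normal thymus; every tumor array was below every normal array, and the change was -1.28 ± 0.44 in resistant tumors (adjusted p = 0.0401) and -1.14 ± 0.44 in tumors (adjusted p = 0.0635). Lum and Dpt, other fibroblast matrix genes, were not called (0.25 and -0.31 in resistant tumors, -0.00 and -0.21 in tumors), while Mfap5 was higher (1.74 ± 0.47 in resistant tumors and 1.35 ± 0.47 in tumors). Fap was higher in resistant tumors (0.91 ± 0.31) and not called in tumors (0.67 ± 0.31). Twist2, under the array median on all normal arrays, was at least 1.61-fold higher in resistant tumors and not called in tumors. Pdgfra and Prrx1 were called in neither. Of 7 mural cell markers 3 were higher and 1 lower in resistant tumors, and 2 were higher and 1 lower in tumors, with summed signals of 652 to 1118 in resistant tumors, 526 to 873 in tumors and 558 to 612 in normal thymus. Myh11, smooth muscle myosin, was the one that fell. The part of fibroblasts and mural cells in the collagen values was not tested.

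**Figure D5:**
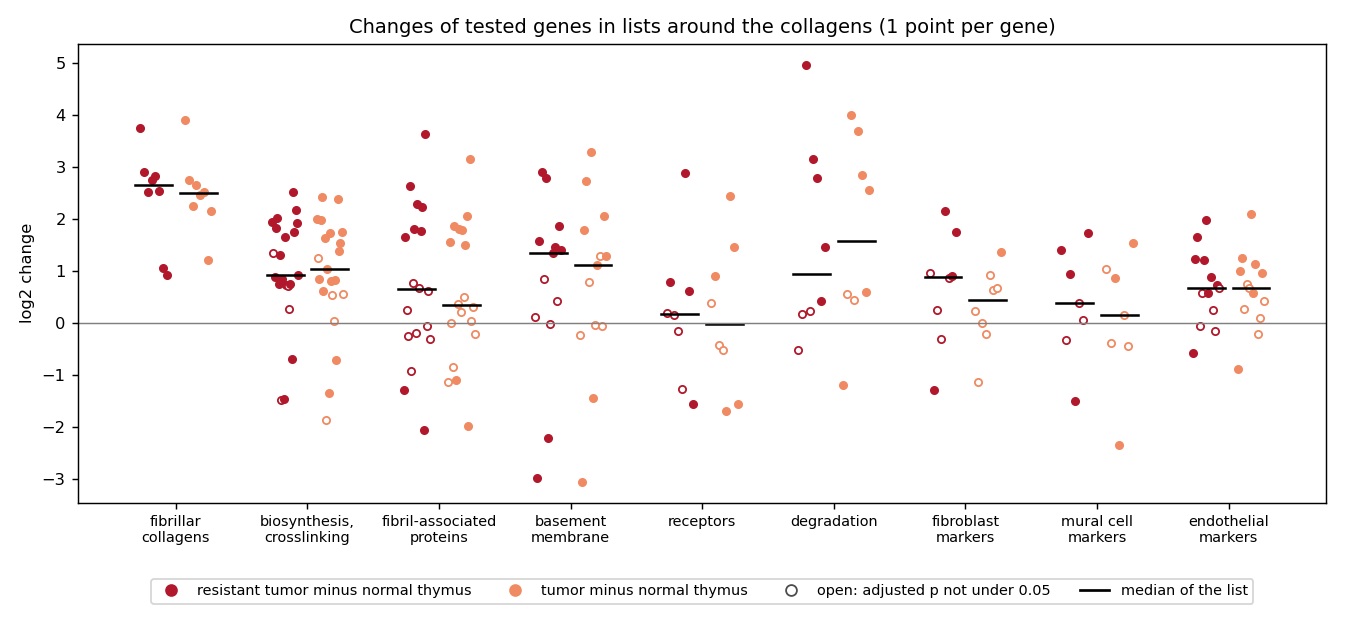
Log2 change against normal thymus (vertical axis) of the tested genes of 9 lists, 1 point per gene, with a black line at each list's median. Red is resistant tumor and orange is tumor, and open points did not pass the test. The fibrillar collagen medians are 2.64 in resistant tumors and 2.49 in tumors, against 0.89 in resistant tumors and 0.43 in tumors for the fibroblast markers.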

How the data were processed

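Biotin-labelled RNA from mouse tissue was hybridised to 9 Affymetrix Mouse430_2 arrays, 3 per group, per the labels' protocols. The deposited intensity values (1 for each probe set and array) come from MAS5, as the submitters' processing notes record. No version, scaling target or detection call was given in the sources used here. The mean signal without the lowest and highest 2% of values was 100.03 in each array, and 5.48% to 14.5% of an array's values were below 1. The number of arrays limits the precision.

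Before log2, values under 1 were raised to 1, and arrays were not rescaled. Symbols came from the platform's gene table, which gave 34945 of 45101 probe sets a single one. A probe set was kept where at least 3 of 9 arrays reached their own median, and the brightest by mean log2 signal stood for its gene. The fit in limma 3.58.1 (R 4.3.3) gave each group its mean over 11671 genes and all 9 arrays, with an intensity trend. The p-values are two-sided and adjusted by the Benjamini-Hochberg method over all genes tested, and genes under 0.05 were called. Where a gene lay below the median of each of the 3 arrays in a group, that group's level is only an upper limit. For it the text writes at least N-fold, which sets the brighter group's mean log2 signal against the mean of the higher of the dim signal and the array median. The fit was tested on simulated data. Figures were drawn with matplotlib 3.10.9.

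The collagen genes, the classes and the other lists were chosen with earlier results of these data known. Values per array are given for each called collagen gene and for types I, III, IV, V, VI, XV and XVIII, and from each other list of matrix genes the 4 called members with the largest changes per comparison are named, or all where fewer were called. Genes that are named besides these, marker genes and second probe sets, were chosen after their values were seen. The alternatives were of 3 kinds. Scaling was changed to quantile normalization, to equal array medians or to an offset of 50 on the signal. Probe sets were taken without a filter, with a filter at the 75th percentile, as the mean of a gene's probe sets or each on its own. The model was run without the intensity trend, without each array in turn, and with the replicate number or the set of arrays by spike-in signal as a block.

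The labels share replicate numbers across groups. Same-numbered deviations from the group means correlated at 0.433, -0.337 and 0.500 between resistant tumor and normal thymus, at 0.548, -0.301 and 0.571 between resistant tumor and tumor, and at 0.654, 0.371 and 0.411 between tumor and normal thymus. The main fit treated the numbers as pairs in no comparison, because the labels do not say that a number marks a shared animal. The replicate block was run only as an alternative, over all groups at once. The spike-in sets follow the same numbers only for tumor against normal thymus. On tumor 1 the control rows were deposited in a different order (r = -0.295 with the mean of the other arrays, 0.907 once sorted) and were sorted before the spike-in sets were read.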

Additional observations from a re-analysis of the deposited data

How the results depend on the processing

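The counts of collagen genes called higher were 21 in resistant tumors and 18 in tumors, and no fitted change of a called gene reversed under the alternatives run. Leaving out 1 array gave 15 to 21 in resistant tumors, 15 to 20 in tumors and 0 to 0 between resistant tumors and tumors. Over the same fits 18.0% to 24.2% of all genes were called higher in resistant tumors and 18.3% to 25.2% in tumors. Equal array medians gave 12 in resistant tumors and 15 in tumors, where 7.52% of all genes were called higher in resistant tumors and 11.1% in tumors; this scaling moved the median change of all genes to 0.24 in tumors, against 0.05, and to -0.26 between resistant tumors and tumors, against -0.02. The filter at the 75th percentile left 12 collagen genes to test, of which 12 were called in resistant tumors and 11 in tumors, where 25.8% of all genes were called higher in resistant tumors and 26.5% in tumors. Between resistant tumors and tumors, 1 gene (Col27a1) was called with the replicate block (adjusted p = 0.0104) and 1 (the same gene) when the block was the set of arrays by spike-in signal (adjusted p = 0.00281), against 0; the cause was not tested. With the replicate block 21 genes were called in resistant tumors and 20 in tumors, the added calls being Col6a1 and Col12a1, where 28.0% of all genes were called higher in resistant tumors and 28.5% in tumors. Of the single-gene calls, 12 of 21 in resistant tumors and 13 of 18 in tumors were kept under every alternative in which they were tested. Those that lost it under at least 1 were Col4a2, Col6a1, Col11a2, Col12a1, Col15a1 and Col27a1 in resistant tumors, Col9a3 and Col16a1 in tumors, and Col6a2, Col7a1 and Col18a1 in both. Signals near or under the array median limit what can be read from Col8a1, Col9a3, Col20a1 and the untested genes.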
